A study of Mus musculus with 6 samples.

Results

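The genes described here encode the phase II conjugating enzymes of 4 classes, the cytosolic and mitochondrial glutathione S-transferases (GST), the microsomal glutathione S-transferases (MGST), the UDP-glycosyltransferases (UGT) and the sulfotransferases (SULT). They were chosen by name and annotation, as protein-coding genes whose symbol starts with Gst and a class letter, Mgst, Ugt or Sult followed by a digit. Earlier results of these data were known when these families were picked, so that their calls are not independent evidence. The rule gave 68 of 54532 genes in the table, of which 22 were GST, 3 MGST, 22 UGT and 21 SULT genes.

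RNA-sequencing was performed on kidneys of 3 WT and 3 TRPM2-KO mice on a C57BL/6J background. All 6 animals were given cisplatin at 18 mg/kg and were examined 72 h later, so that no untreated kidney is part of the comparison. The labels give an age of 6 to 8 weeks, whereas the study's methods give another range. According to the methods the mice were male, and the TRPM2-KO animals lack exons that encode transmembrane segments of TRPM2, a calcium-permeable channel. No restriction of the knockout to a cell type is named. The methods give Shanghai SLAC Laboratory as the source of the WT mice and the University of Leeds as that of the knockout line. Use of littermates is not stated, so that source and genotype cannot be told apart. Trpm2 counts were low in every library, at 5, 5 and 27 in WT and 10, 16 and 20 in TRPM2-KO mice, and a count over the whole gene does not test a deletion of exons.

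Phase II enzymes attach a water-soluble group to drugs, bile pigments, steroids and lipid oxidation products. GST and MGST enzymes transfer glutathione, UGT enzymes a sugar that is mostly glucuronic acid, and SULT enzymes sulfate from the donor PAPS. In the kidney many of these enzymes are made in proximal tubule cells, which take up drugs from the blood and which are the main site of cisplatin injury. The transcription factor NRF2, which binds antioxidant response elements, and the tubular and hepatic factors HNF1 and HNF4 are known regulators of members of these families.

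Promoters of 5 members are shown because they carry the antioxidant response element or the HNF1 motif and because they include genes that fell and genes that did not pass the test. Each line is the RefSeq sequence (GRCm38.p6) of the 250 bases before a start site, from 5′ to 3′ on the strand of the gene, with motif matches in capitals. Gsta3 (chr1:21240335-21240584, plus strand) and Gstm5 (chr3:107895604-107895853, plus strand) hold TGACNNNGC, the core of the antioxidant response element. Ugt1a1 (chr1:88211709-88211958, plus strand), Ugt1a10 (chr1:88055161-88055410, plus strand) and Sult1d1 (chr5:87569007-87569256, minus strand) hold GTTAATNAT or its reverse complement, a motif of HNF1, and Sult1d1 also has the reverse complement of TNGCGTG, the core bound by the aryl hydrocarbon receptor.
Gsta3: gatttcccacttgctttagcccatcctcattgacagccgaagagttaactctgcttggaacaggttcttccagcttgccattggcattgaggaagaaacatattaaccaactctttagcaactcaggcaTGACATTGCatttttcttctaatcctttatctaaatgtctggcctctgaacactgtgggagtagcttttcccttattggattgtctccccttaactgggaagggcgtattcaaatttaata
Gstm5: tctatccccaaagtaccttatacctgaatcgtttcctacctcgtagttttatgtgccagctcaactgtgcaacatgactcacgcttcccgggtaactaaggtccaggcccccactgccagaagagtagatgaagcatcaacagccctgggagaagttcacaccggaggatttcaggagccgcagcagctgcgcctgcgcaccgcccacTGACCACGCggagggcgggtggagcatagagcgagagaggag
Ugt1a1: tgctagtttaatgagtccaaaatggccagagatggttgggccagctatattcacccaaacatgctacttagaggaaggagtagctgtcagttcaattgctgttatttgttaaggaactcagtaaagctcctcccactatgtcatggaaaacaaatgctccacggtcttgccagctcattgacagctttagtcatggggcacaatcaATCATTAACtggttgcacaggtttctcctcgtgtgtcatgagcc
Ugt1a10: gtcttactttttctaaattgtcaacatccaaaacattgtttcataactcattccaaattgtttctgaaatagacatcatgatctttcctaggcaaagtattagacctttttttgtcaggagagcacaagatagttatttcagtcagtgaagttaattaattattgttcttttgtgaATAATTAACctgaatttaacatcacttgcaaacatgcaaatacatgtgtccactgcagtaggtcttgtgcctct
Sult1d1: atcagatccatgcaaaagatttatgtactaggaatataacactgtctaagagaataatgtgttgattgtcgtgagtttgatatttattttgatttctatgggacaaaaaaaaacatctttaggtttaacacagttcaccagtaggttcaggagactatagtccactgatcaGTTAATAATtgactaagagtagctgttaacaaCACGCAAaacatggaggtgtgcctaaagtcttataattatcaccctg

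Both strands of the 250 bases before and 50 after each RefSeq start were searched, and 60 members had such a sequence. TGACNNNGC was found in 4 members, Gsta3, Gstm5, Gstm7 and Mgst1, and in 12.4% of all 32851 promoters. The matches of Gstm7 and Mgst1 lay before an inner start, inside the gene as GENCODE draws it. GTTAATNAT was found in 8 members, Sult1d1, Sult2a3, Sult2a4, Sult2a5, Sult2a6, Ugt1a1, Ugt1a9 and Ugt1a10, and in 0.801% of all promoters. The Sult2a matches all had the same letters, GTTAATGAT. Of 39 tested members with a promoter sequence 3 held the motif, and of 20 called lower 2 did. TNGCGTG was found in 3 members, Gsta2, Sult1d1 and Ugt1a5, against 5.07% of all promoters, and the HNF4 motif CAAAGTCCA in 1 member, Sult1b1, against 0.475%. A gene can have several promoter sequences, so that counts of members and shares of promoters are not like measures. These matches describe letters in a window, and binding was not measured.

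After cisplatin, many conjugating enzyme genes were expressed at a lower level in TRPM2-KO than in WT kidneys, and none was called higher. Of the 68 members, 42 had enough counts to be tested, 10 had no count in any library and 16 had totals of 1 to 51 counts. Among the 42, the quasi-likelihood test of edgeR, Benjamini-Hochberg adjusted over all 15816 genes, called 22 lower (52.4%) and 0 higher at an adjusted p under 0.05. Over all genes tested, 7.28% were called lower and 4.74% higher. At an unadjusted p under 0.05, 26 members were lower and 0 higher, and no alternative tool or setting called a member higher. For counts at an unadjusted p alone, here and below, no share over all genes is given to read them against. The study's threshold, an absolute log2 fold change above 1 with a p under 0.05, was passed downwards by 15 members and upwards by 0, against 4.1% and 3.5% of all genes. In 25 members all TRPM2-KO values lay under all WT values, which held for 16.8% of all genes, and in 0 members all lay above, which held for 16.7%.

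The median log2 fold change was -0.72 over the 42 members and 0.02 over all genes tested. Of the 42 fitted values 39 were below 0, against 48.4% over all genes tested. By class the called-lower members were 12 of 20 tested GST, 2 of 2 MGST, 6 of 12 UGT and 2 of 8 SULT genes, with class medians of -0.68, -0.84, -1.39 and -0.20. The differences between classes were not tested. The number of calls depended on WT 2 and WT 3, since 12 members were called lower without WT 2 and 13 without WT 3. Without either of them 7 GST genes and 1 MGST gene were called. The calls over all genes also dropped then, from 1152 lower to 521 and 470. The median over the members was -0.71 without WT 2 and -0.62 without WT 3. In whole tissue, fewer cells of a type and less RNA per cell cannot be told apart.

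**Figure D1:**
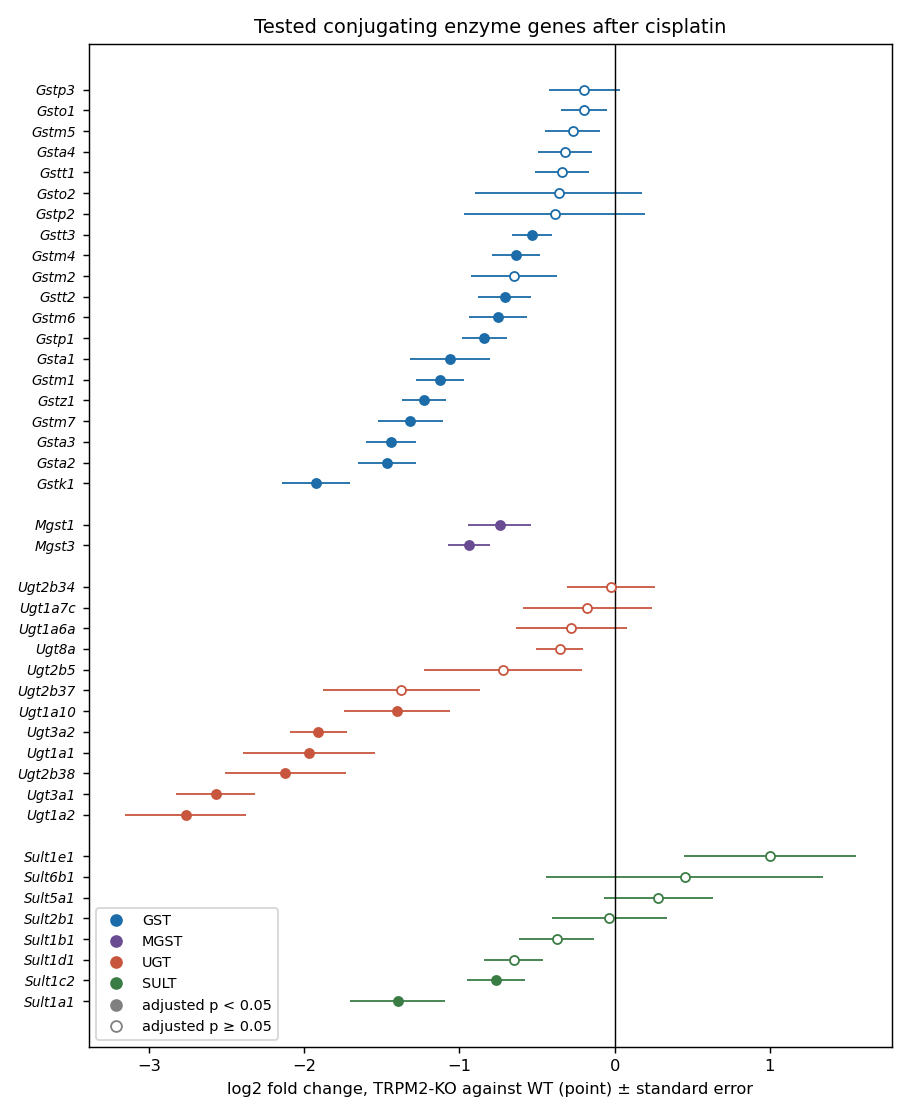
Log2 fold change of TRPM2-KO against WT (horizontal axis, point with standard error) for the 42 tested members, grouped by class. Values ran from -2.76 for Ugt1a2 to 1.00 for Sult1e1, and 39 points lie left of 0.

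Summed per class, the same counts were also lower in TRPM2-KO mice on the FPKM scale, which divides by gene length. The sums are thus no second measurement. GST members summed to 2302, 2552 and 2820 FPKM in WT and 1309, 1309 and 1412 FPKM in TRPM2-KO mice, a ratio of means of 0.525. MGST members summed to 260 ± 38.9 FPKM in WT and 145 ± 18.8 FPKM in TRPM2-KO (SD, n = 3 each), a ratio of 0.558. UGT members summed to 221 ± 24.8 and 80.7 ± 20.01 FPKM, a ratio of 0.366, and SULT members to 358 ± 58.6 and 224 ± 34.8 FPKM, a ratio of 0.626. Sult1d1, which was not called, made up 88.2% of the SULT sum in WT. In each class the highest TRPM2-KO sum was under the lowest WT sum. All members together took 0.589 to 0.692% of the counts of a WT library and 0.338 to 0.366% of those of a TRPM2-KO library.

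**Figure D2:**
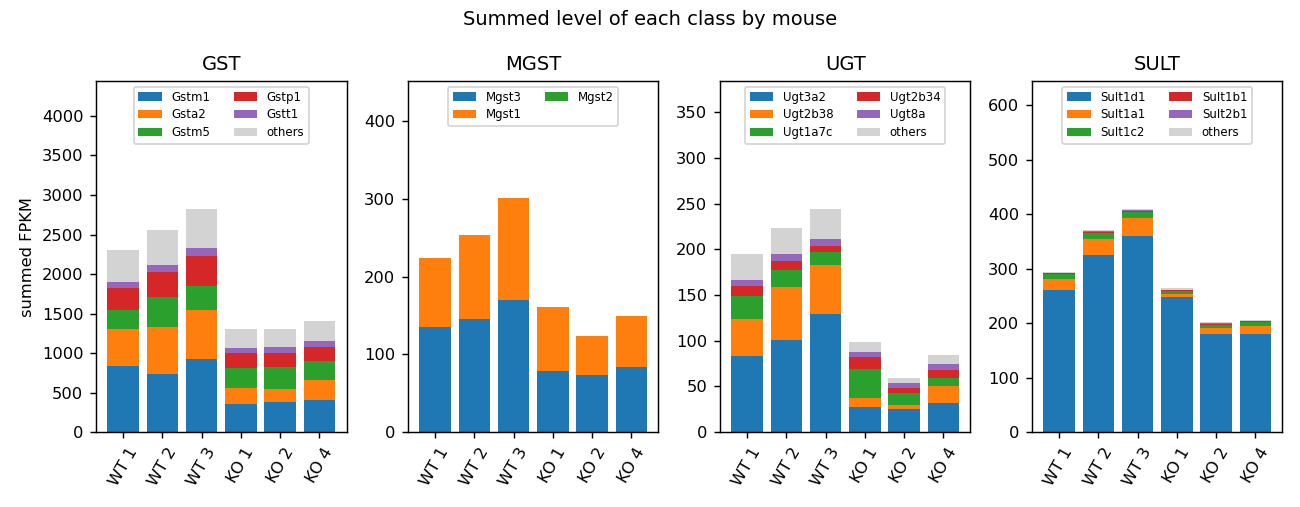
Summed FPKM of each class in each of the 6 mice, with the leading members as stacked parts. The UGT sums were 195, 223 and 244 FPKM in WT and 98.4, 59.0 and 84.7 FPKM in TRPM2-KO mice, with no overlap.

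Alpha-class GST enzymes conjugate glutathione to electrophiles such as 4-hydroxynonenal and reduce lipid hydroperoxides. Gsta2 was the most abundant of them, and its expression was 627, 805 and 839.8 CPM, the count scaled by library size, in the 3 WT and 265, 228 and 330.3 CPM in the 3 TRPM2-KO mice. The groups did not overlap, and the level in TRPM2-KO was 36.2% of that in WT (log2 fold change -1.46 ± 0.186 SE, adjusted p = 0.00257). Gsta3, which besides conjugation isomerizes steroid precursors, was at 209.9, 259.5 and 280.2 CPM in WT and 98.0, 77.4 and 100.4 CPM in TRPM2-KO. All 3 TRPM2-KO values were again below the WT values, with a log2 fold change of -1.44 ± 0.163 (adjusted p = 0.00152). Gsta1 was at 54.3, 49.99 and 73.5 CPM in WT and 41.2, 22.8 and 21.1 CPM in TRPM2-KO. TRPM2-KO 1 was close to the lowest WT mouse, and the call (log2 fold change -1.06 ± 0.258, adjusted p = 0.0290) was lost when any 1 mouse other than TRPM2-KO 1 was left out, with an adjusted p of up to 0.118. Gsta4, the member with the highest known activity towards 4-hydroxynonenal, had overlapping values (log2 fold change -0.32, adjusted p = 0.270).

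Reads of the alpha genes on chromosome 9 cannot always be assigned to 1 gene. Of the 75-base windows of Gsta1, 84.66% occur in another gene, mostly the gene model Gm3776, and for Gsta2 the share is 36.59%. None of the windows of Gsta3 or Gsta4 is shared. Summed over the 4 alpha genes, the count in TRPM2-KO was 39.6% of that in WT (adjusted p = 0.00301), a value that does not depend on how reads were divided among these 4.

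Mu-class enzymes are abundant cytosolic transferases for epoxides and quinones, and of the 7 Gstm genes 6 were tested and 4 called lower. Gstm1 had the highest FPKM of all members in both genotypes. Its expression was 1397, 1232 and 1563 CPM in WT and 601, 643 and 675 CPM in TRPM2-KO mice. All TRPM2-KO values were well under the lowest WT value, and the log2 fold change was -1.13 ± 0.155 (adjusted p = 0.00332). Gstm7 was expressed far lower, at 19.1, 23.2 and 26.3 CPM in WT and 7.04, 10.1 and 10.4 CPM in TRPM2-KO. The groups were separate, with a log2 fold change of -1.32 ± 0.210 (adjusted p = 0.00536). Gstm6 and Gstm4 fell by 0.75 and 0.64 on the log2 scale (adjusted p = 0.0312 and 0.0290), and both calls were lost without WT 2, WT 3, TRPM2-KO 2 or TRPM2-KO 4 (Gstm4 also without WT 1), with an adjusted p of up to 0.146 for Gstm4 and 0.142 for Gstm6. Gstm2 was at 66.1, 35.7 and 44.3 CPM in WT and 20.015, 34.7 and 38.6 CPM in TRPM2-KO, and its groups overlapped (log2 fold change -0.65, adjusted p = 0.158).

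Gstm5, of the same class, was not called. It was at 354, 557 and 437 CPM in WT and 376, 397 and 344 CPM in TRPM2-KO, and the groups overlapped (log2 fold change -0.27 ± 0.179, adjusted p = 0.360). For every 100 reads of Gstm5 there were 395, 221 and 358 reads of Gstm1 in WT mice and 160, 162 and 196 in TRPM2-KO mice, a pair that was chosen after its values were seen. On the FPKM scale Gstm5 was the fifth member in WT and the second in TRPM2-KO, where Gstm1 remained first. Of the Gstm1 windows 11.65% are shared with other genes, and of the Gstm5 windows 7.47%.

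Gstp1, the pi-class enzyme, also restrains stress kinase signaling. It was at 245, 271 and 329 CPM in WT and 163, 158 and 152 CPM in TRPM2-KO. The TRPM2-KO mice lay within a narrow range under all WT mice, and Gstp1 fell by 0.84 on the log2 scale (adjusted p = 0.00713). Gstp2 shares 50.13% of its windows, mainly with Gstp1, and was near 1 CPM, while Gstp3 shared none and had overlapping values (log2 fold change -0.19). The sum of the 3 pi genes was 56.7% of WT (adjusted p = 0.00771).

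Gstk1, the kappa-class transferase of mitochondria and peroxisomes, had the lowest log2 fold change of the GST class. Its expression was 69.4, 94.5 and 111.0 CPM in WT and 21.7, 20.005 and 30.7 CPM in TRPM2-KO mice. The highest TRPM2-KO mouse was far under the lowest WT mouse, and the level was 26.3% of WT (log2 fold change -1.92 ± 0.217, adjusted p = 0.00152). Gstz1, the zeta-class enzyme that isomerizes maleylacetoacetate in tyrosine breakdown, was at 324, 409.9 and 384 CPM in WT and 149, 159 and 170.1 CPM in TRPM2-KO. The groups were far apart (log2 fold change -1.23 ± 0.142, adjusted p = 0.00166).

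Of the theta class 2 of 3 tested genes were called lower, and of the omega class 0 of 2. Gstt1, a theta-class enzyme for small halogenated compounds, was at 125, 158 and 176 CPM in WT and 99.4, 123 and 140.2 CPM in TRPM2-KO. These values overlapped (log2 fold change -0.34, adjusted p = 0.238), whereas its neighbours Gstt2 and Gstt3 fell by 0.71 and 0.53 on the log2 scale (adjusted p = 0.0272 and 0.0300). Both calls were lost without WT 2, WT 3 or TRPM2-KO 1 (Gstt2 also without TRPM2-KO 4), with an adjusted p of up to 0.125 and 0.153. Gsto1, the omega-class enzyme that reduces dehydroascorbate and arsenic species, was at 85.5, 82.1 and 86.1 CPM in WT and 68.6, 63.3 and 89.2 CPM in TRPM2-KO. TRPM2-KO 4 was above every WT mouse, and the log2 fold change was -0.20 ± 0.149 (adjusted p = 0.425). Gsto2 was under 1 CPM in every mouse, with a log2 fold change of -0.36, and Gstm3 and Gstt4 had too few counts to be tested.

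The microsomal transferases sit in membranes and conjugate or reduce lipid-soluble substrates. Mgst3, which also acts on leukotriene precursors, was at 169.5, 182 and 214 CPM in WT and 98.7, 92.5 and 104 CPM in TRPM2-KO mice. The groups did not overlap, and Mgst3 fell by 0.94 on the log2 scale (adjusted p = 0.00380). Mgst1 was at 204, 248 and 302 CPM in WT and 188, 116 and 148 CPM in TRPM2-KO. TRPM2-KO 1 came near the lowest WT mouse, and Mgst1 fell by 0.74 (adjusted p = 0.0452). This call was lost without WT 2, WT 3, TRPM2-KO 2 or TRPM2-KO 4 and with limma on log2 FPKM (adjusted p of up to 0.189). Mgst2 had too few counts to be tested.

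**Figure D3:**
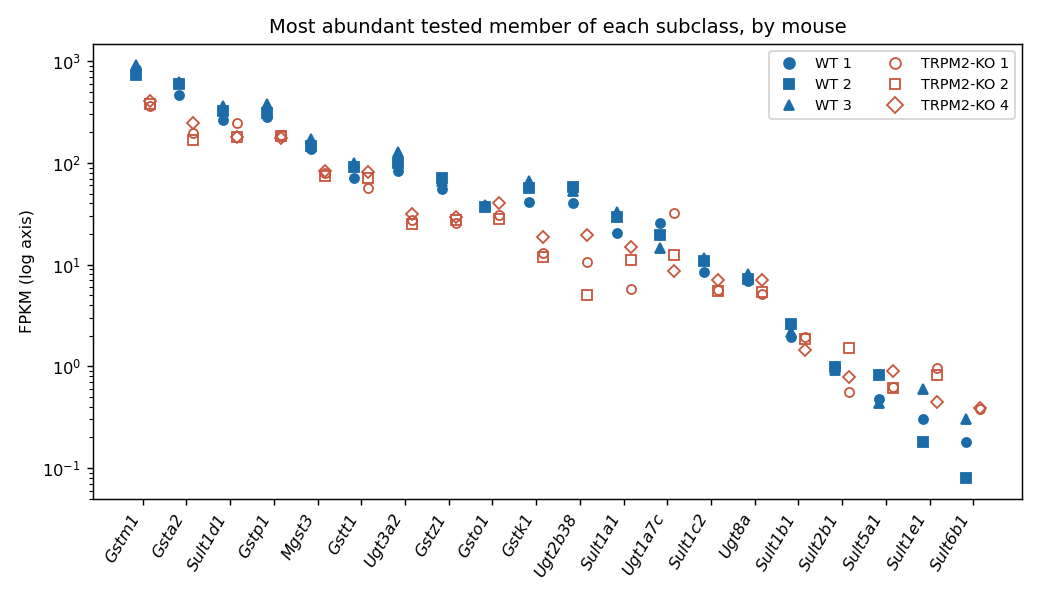
FPKM (log axis) in each mouse of the tested member with the highest mean FPKM in each subclass, with WT and TRPM2-KO mice as separate points. Gstm1 was highest, at a mean of 829.7 FPKM in WT and 383 FPKM in TRPM2-KO. Values of 0 cannot be drawn on this axis.

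All 12 tested UGT genes had fitted values below 0, and the 6 called lower belonged to the Ugt1a, Ugt2b and Ugt3a subfamilies. The class median of -1.39 was the lowest of the 4 classes in this fit, but not without a filter on low counts (-0.52, with GST at -0.69 and MGST at -0.75) or with limma on log2(FPKM + 1), where it was -0.73 and that of MGST -0.82. The Ugt3a enzymes use sugars other than glucuronic acid. Ugt3a2, which had the highest FPKM of the class, was at 295, 357 and 459 CPM in WT and 95.9, 89.5 and 110.1 CPM in TRPM2-KO mice. The highest TRPM2-KO value was well under the lowest WT value, and the level was 26.6% of WT (log2 fold change -1.91 ± 0.184, adjusted p = 0.00126). Its neighbour Ugt3a1 was at 24.9, 31.8 and 42.4 CPM in WT and 5.94, 4.03 and 6.66 CPM in TRPM2-KO. No mouse overlapped between the genotypes (log2 fold change -2.57 ± 0.256, adjusted p = 0.00126). The genes lie side by side on chromosome 15 (GRCm38), Ugt3a1 from 9276888 to 9315032 and Ugt3a2 from 9335550 to 9370955, both on the plus strand, and share only 1.25% and 1.12% of their windows.

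Ugt2b enzymes glucuronidate steroids, bile acids and drugs. Ugt2b38 was at 86.8, 124 and 116 CPM in WT and 22.6, 10.7 and 41.6 CPM in TRPM2-KO mice. It was low in all 3 TRPM2-KO mice, though these differed among themselves, and the log2 fold change was -2.12 ± 0.390 (adjusted p = 0.00913). Ugt2b34 on the same chromosome was at 52.9, 48.2 and 32.3 CPM in WT and 63.0, 27.3 and 40.7 CPM in TRPM2-KO. These values overlapped widely (log2 fold change -0.02 ± 0.286, adjusted p = 0.968), and the sign turned under upper quartile scaling and when WT 1, WT 2, TRPM2-KO 2 or TRPM2-KO 4 was left out. For every 100 reads of Ugt2b34 there were 164, 258 and 358 reads of Ugt2b38 in WT and 35.9, 39.2 and 102 in TRPM2-KO mice, a pair also chosen after its values were seen and not tested. Ugt2b38 shares 28.01% of its windows, mainly with Ugt2b5, which was at 0.707 to 2.52 CPM and had overlapping values. Ugt2b37 was at 3.08, 5.40 and 3.62 CPM in WT and 1.71, 0.478 and 2.43 CPM in TRPM2-KO. Its groups did not overlap, and the test did not call it (log2 fold change -1.38 ± 0.505, adjusted p = 0.108).

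The 9 Ugt1a genes of chromosome 1 are alternative first exons joined to the same downstream exons, so that reads of the common part cannot be assigned to a member. Between 51.16% and 78.84% of the windows of each tested Ugt1a gene occur in another gene. Ugt1a7c, the most abundant by FPKM, was at 123, 93.7 and 70.1 CPM in WT and 153, 60.4 and 40.7 CPM in TRPM2-KO mice. TRPM2-KO 1 was the highest of all 6 mice and TRPM2-KO 4 the lowest, and the log2 fold change was -0.18 ± 0.417 (adjusted p = 0.824). The sign turned when WT 1, TRPM2-KO 2 or TRPM2-KO 4 was left out. Ugt1a6a, an enzyme for planar phenols, was at 7.59, 4.75 and 6.99 CPM in WT and 4.16, 3.48 and 8.28 CPM in TRPM2-KO, also with overlap (log2 fold change -0.28, adjusted p = 0.659). Ugt1a5, Ugt1a6b, Ugt1a8 and Ugt1a9 had too few counts to be tested.

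Called lower at the locus were 3 members. Ugt1a2 was at 13.6, 15.6 and 12.5 CPM in WT and 3.55, 1.16 and 1.37 CPM in TRPM2-KO mice. It was low in every TRPM2-KO mouse, at 14.7% of the WT level, the lowest share of all tested members (log2 fold change -2.76 ± 0.390, adjusted p = 0.00351). Ugt1a10 was at 21.7, 15.9 and 20.98 CPM in WT and 11.6, 3.89 and 6.60 CPM in TRPM2-KO. The groups were separate (log2 fold change -1.40 ± 0.341, adjusted p = 0.0290), and the call was lost without any 1 of the WT mice or TRPM2-KO 4. Ugt1a1, the bilirubin-conjugating enzyme, was at 2.78, 3.41 and 2.15 CPM in WT and 0.428, 0.683 and 0.996 CPM in TRPM2-KO. Its counts were few, all TRPM2-KO values were under 1 CPM (log2 fold change -1.97 ± 0.425, adjusted p = 0.0181), and the call was lost without WT 2 or TRPM2-KO 1.

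For every 100 reads of Ugt1a7c there were 11.02, 16.7 and 17.9 reads of Ugt1a2 in WT and 2.32, 1.92 and 3.36 in TRPM2-KO mice, again a pair chosen after its values were seen and not tested. Ugt1a7c took most reads of the locus, and the sum of the Ugt1a genes, at 72.3% of WT, was not called (log2 fold change -0.47 ± 0.359, adjusted p = 0.435). The Ugt2b sum was 45.0% of WT (adjusted p = 0.0238) and the Ugt3a sum 25.8% (adjusted p = 0.00128). Ugt8a, which makes galactosylceramide, was at 35.8, 37.3 and 42.3 CPM in WT and 26.7, 27.7 and 35.8 CPM in TRPM2-KO. TRPM2-KO 4 was just under WT 1, and the difference did not pass the test (log2 fold change -0.36 ± 0.153, adjusted p = 0.162). Ugt2a3, Ugt2b1 and Ugt2b35 had too few counts to be tested, and Ugt2a1, Ugt2a2 and Ugt2b36 had none.

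**Figure D4:**
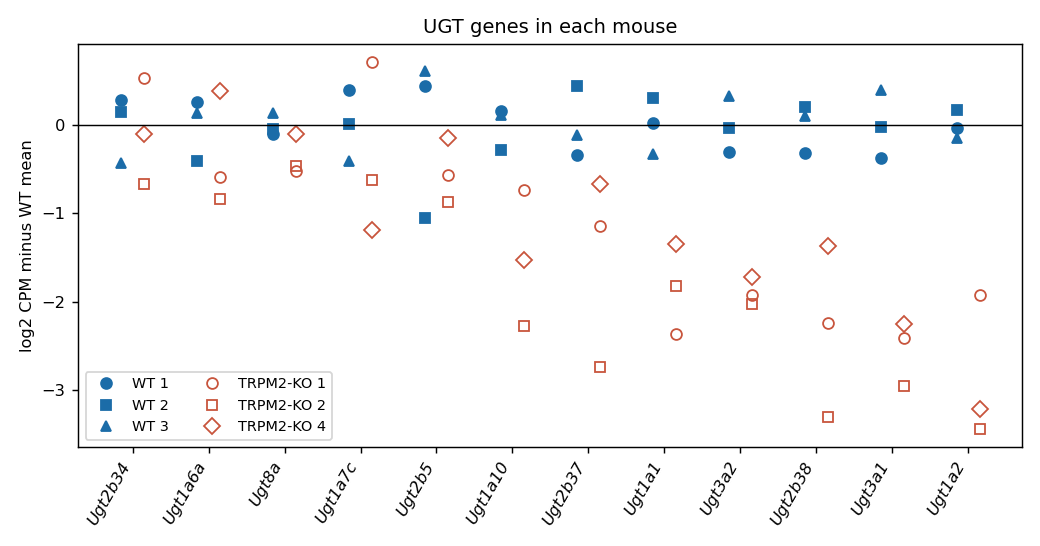
Log2 CPM of each tested UGT gene in each mouse minus its WT mean (vertical axis), with 1 marker per mouse. The median over the 12 genes was -0.94, -1.92 and -1.27 in TRPM2-KO 1, 2 and 4. TRPM2-KO 1 was the highest of the knockout mice for Ugt1a2, Ugt1a7c, Ugt1a10 and Ugt2b34.

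On the FPKM scale, Ugt3a2 made up 46.9 ± 5.28% of the class sum in WT and 35.9 ± 7.69% in TRPM2-KO mice, and Ugt2b38 22.8 ± 2.67% and 14.1 ± 7.87% (SD, n = 3 each). Ugt1a7c made up 9.27 ± 3.64% and 21.3 ± 11.1%, and Ugt2b34 4.197 ± 1.43% and 10.8 ± 1.99%. No test was made of these shares.

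Of the 21 sulfotransferase genes, 7 had no count in any library, among them 6 of the 8 Sult2a genes, which encode hydroxysteroid and bile acid sulfotransferases best known from liver. Sult1d1 made up most of the class, at 88.2% of the summed FPKM in WT and 90.1% in TRPM2-KO. Sult1d1, which sulfates catecholamines and eicosanoids in mice, was at 733, 914 and 1015 CPM in WT and 692, 505 and 498 CPM in TRPM2-KO mice. No TRPM2-KO mouse reached the lowest WT mouse, but TRPM2-KO 1 was close to it, and the log2 fold change of -0.65 ± 0.189 did not pass the test (adjusted p = 0.0534). Under 7 of 16 alternative settings without the replicate block it passed.

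Sult1a1, the phenol sulfotransferase, was at 34.9, 50.2 and 57.2 CPM in WT and 9.92, 18.9 and 25.2 CPM in TRPM2-KO mice. The groups did not overlap (log2 fold change -1.40 ± 0.307, adjusted p = 0.0194). Sult1c2 was at 17.6, 22.8 and 24.4 CPM in WT and 11.9, 11.5 and 14.7 CPM in TRPM2-KO. It was lower in every TRPM2-KO mouse and fell by 0.77 on the log2 scale (adjusted p = 0.0296). Both calls were lost without WT 2 or WT 3, so that 0 SULT genes were called then, and that of Sult1c2 also without TRPM2-KO 1 or 2, with an adjusted p of up to 0.0754 for Sult1a1 and 0.146 for Sult1c2.

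The other sulfotransferases had overlapping groups. Sult1b1, a thyroid hormone and phenol sulfotransferase, was at 6.17, 8.35 and 6.99 CPM in WT and 6.18, 5.87 and 4.55 CPM in TRPM2-KO (log2 fold change -0.37). Sult2b1, which sulfates cholesterol, was at 4.502, 4.43 and 4.17 CPM in WT and 2.51, 6.83 and 3.49 CPM in TRPM2-KO, so that the spread was in the TRPM2-KO mice alone (log2 fold change -0.04, with the sign turned under upper quartile scaling and without TRPM2-KO 1 or 4). Sult5a1 was at 2.41, 4.18 and 2.21 CPM in WT and 3.12, 3.07 and 4.48 CPM in TRPM2-KO (log2 fold change 0.28). The 3 fitted values above 0 of all members were those of Sult5a1, of Sult6b1 (0.45) and of the estrogen sulfotransferase Sult1e1 (1.00 ± 0.555, adjusted p = 0.275). Sult1e1 and Sult6b1 were at 1.35 CPM or less in every mouse. Sult1c1, Sult2a1, Sult2a3, Sult3a2, Sult4a1 and Sult6b2 had too few counts to be tested, and Sult3a1 had none.

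Called members that fell more than 2-fold numbered 14 of 42, against 3.11% of all genes tested, and their TRPM2-KO levels lay between 14.7% and 47.9% of WT. Among the TRPM2-KO mice, TRPM2-KO 4 had the highest value in 22 of the 42 tested members, TRPM2-KO 1 in 15 and TRPM2-KO 2 in 5. Over all genes tested these shares were 33.5%, 34.2% and 32.3%, whereas among the members they were 52.4%, 35.7% and 11.9%. The members' order within the knockout group was a description, and no test was made of it.

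Conjugation depends on the supply of the group transferred. For glutathione, 1 of 6 genes was called lower and 0 higher (median log2 fold change -0.13). Gss, glutathione synthetase, fell by 0.55 (adjusted p = 0.0439), whereas Ggct (-0.46) and the cystine transporter gene Slc7a11 (0.96) did not pass. Gclc, the catalytic subunit of the rate-limiting enzyme, had overlapping values (0.13). For UDP-glucuronic acid, its transport and related glucuronate enzymes, 1 of 6 genes was called lower and 0 higher (median -0.30). It was Miox, a proximal tubule enzyme that makes free glucuronate from inositol and not UDP-glucuronic acid. Miox fell by 1.51 on the log2 scale (adjusted p = 0.0173), while Ugp2 (-0.39) and the transporter gene Slc35d1 (-0.37) did not pass. Ugdh, which makes UDP-glucuronic acid, had overlapping values (-0.09, adjusted p = 0.703).

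For PAPS and sulfate, 1 of 7 genes was called lower and 0 higher (median -0.45). Papss2, a PAPS synthase, fell by 0.79 (adjusted p = 0.0141), and the sulfate transporter genes Slc13a1 and Slc26a1 had log2 fold changes of -0.63 and -0.48 that did not pass (adjusted p = 0.0588 and 0.0735). Of 9 tested genes for other conjugations, 2 were called lower and 0 higher (median -0.55). Glyat, the glycine N-acyltransferase of mitochondria, fell by 0.70 (adjusted p = 0.0206) and the thiopurine methyltransferase gene Tpmt by 0.63 (adjusted p = 0.0387), and Inmt at -1.04 did not pass (adjusted p = 0.0647). Each of these lists was read against the 7.28% of all genes called lower.

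Among 14 tested regulators of conjugating genes, 0 were called lower and 0 higher by edgeR, with a median log2 fold change of 0.12. At an unadjusted p under 0.05, 3 were lower and 2 higher, and the DESeq2 Wald test called 1 lower and 0 higher. Values of the bile acid receptor gene Nr1h4 were lower in every TRPM2-KO mouse (log2 fold change -0.63, adjusted p = 0.0557). Hnf4a had a log2 fold change of -0.49 (adjusted p = 0.135) and Maff, a small partner of NRF2, one of 0.45 (adjusted p = 0.124). Nfe2l2, which encodes NRF2 and is regulated mainly at the protein level, was at 243, 243 and 213 CPM in WT and 316, 234 and 272 CPM in TRPM2-KO, with overlapping groups (0.23, adjusted p = 0.343).

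Of 7 other known NRF2 targets tested, 3 were called lower and 0 higher, with a median log2 fold change of 0.10. The carbonyl reductase gene Cbr3 fell by 1.43 (adjusted p = 0.00254), the quinone reductase gene Nqo1 by 0.78 (adjusted p = 0.00750) and Osgin1 by 0.68 (adjusted p = 0.0382). The thioredoxin reductase gene Txnrd1 and the heme oxygenase gene Hmox1 were higher in every TRPM2-KO mouse, at 0.56 and 0.50, and did not pass (adjusted p = 0.0533 and 0.0776). Of the members whose promoter held the antioxidant response element core, Gsta3, Gstm7 and Mgst1 were called lower and Gstm5 was not.

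**Figure D5:**
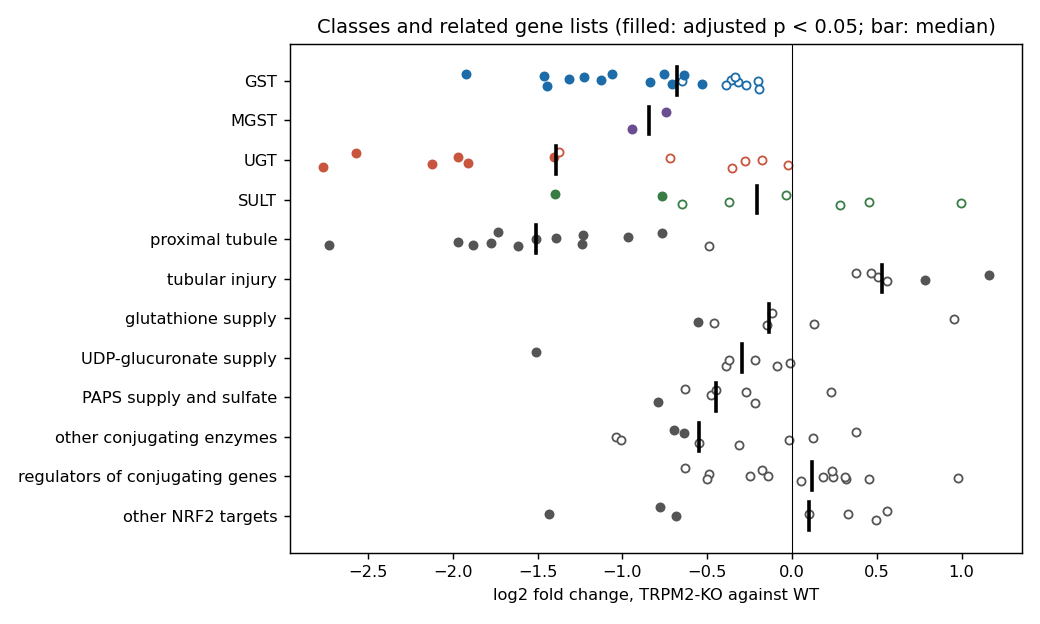
Log2 fold change of TRPM2-KO against WT (horizontal axis) for each tested gene of the 4 classes and of the related lists, with filled points at an adjusted p under 0.05 and a bar at the median. Proximal tubule markers had a median of -1.51, the UGT class -1.39 and the regulators 0.12.

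Proximal tubule markers were lower alongside the members. Of 13 tested, 12 were called lower and 0 higher (median log2 fold change -1.51), and their summed level was 10533 to 13205 CPM in WT and 4004 to 5486 CPM in TRPM2-KO mice. The anion transporter gene Slc22a7 fell (log2 fold change -1.97, adjusted p = 0.00263), as did the phosphate transporter gene Slc34a1 (-2.73, adjusted p = 0.00391) and the endocytic receptor gene Cubn (-1.39, adjusted p = 0.00401), whereas Hnf4a did not pass. Miox is in this list and in the list for UDP-glucuronic acid, and Hnf4a is in this list and among the regulators. Of 6 tubular injury genes, 2 were called higher and 0 lower, and their sum was 4410 to 5746 CPM in WT and 7096 to 8327 CPM in TRPM2-KO. Sox9 rose by 1.16 and Krt20 by 0.79 (adjusted p = 0.0115 and 0.0189), and the injury marker Havcr1 was at 0.51 (adjusted p = 0.0747). The part of tubular cell content or injury in the members' lower level was not tested.

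Markers of the other cell types were counted in the same way. Of the tested markers 1 of 5 was called lower for the thick ascending limb (Umod), 2 of 5 for the collecting duct (Aqp2 and Aqp3), 1 of 6 for macrophages (C1qa) and 0 of 3 for the distal convoluted tubule, 0 of 5 for endothelium, 0 of 5 for fibroblasts and 0 of 4 for podocytes. None of these lists had a marker called higher. At an unadjusted p under 0.05, 3 markers of the thick ascending limb, 3 of the collecting duct and 2 of macrophages were lower, and 1 of the distal convoluted tubule and 2 of podocytes were higher. The median log2 fold changes were -0.92 for the thick ascending limb, -0.47 for the collecting duct, -0.46 for the distal convoluted tubule, -0.30 for macrophages, -0.27 for endothelium, 0.06 for fibroblasts and 0.92 for podocytes. The podocyte sum was 125 to 167 CPM in WT, 165 and 143 CPM in TRPM2-KO 1 and 2, and 478 CPM in TRPM2-KO 4. TRPM2-KO 4 also had the highest endothelium and fibroblast sums, at 179 and 147 CPM. In every other library these were at most 109 and 86.6 CPM. In no other cell type list was TRPM2-KO 4 the highest library. For urothelium 2 of 4 tested markers were called lower (Psca and Upk3a), with sums of 69.7, 13.4 and 20.1 CPM in WT and 8.26 to 11.1 CPM in TRPM2-KO, so that WT 1 stood out, and a median of -2.17. For hepatocytes 2 of 5 were called lower (Ttr and Serpina1a) with a median of -1.08, while Alb was at 1.35 CPM or less and Tat at or near 0 in every library. For the adrenal cortex 0 of 1 was called, and Cyp11b1 and Cyp11b2 were at or near 0 CPM.

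Library totals were 14053307 to 17150089 counts, where 3 counts correspond to 0.175 to 0.213 CPM. Transcripts of the mitochondrial genome took 4.43 to 4.72% of the counts in WT and 7.91 to 11.04% in TRPM2-KO libraries. With these genes left out of the totals, 22 members were again called lower and 0 higher.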

How the data were processed

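Kidney RNA of 3 WT and 3 TRPM2-KO mice was sequenced. According to the study's methods, Trizol was used for isolation and the NEBNext Ultra II kit for the libraries, with HiSeq sequencing at Novogene. The submitters' processing notes name HISAT2, StringTie and mm9, without versions. The gene positions in the deposited tables are those of GRCm38, since 64 of the 68 members have the chromosome, start, end and strand of GENCODE release M21. The counting tool and the strandedness are not given in the sources used here, so overlapping genes and near-identical copies may exchange reads. The counts deposited by the authors are whole reads per gene, without normalization. The FPKM values deposited by the authors are these counts divided by gene length and a library total, which is not the sum of the deposited counts. The total implied by the FPKM values was 17780200 in WT 2 and 16708100 in TRPM2-KO 2. The deposited counts of these libraries sum to 16775965 and 14053307. How that total was scaled is not given.

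Members were chosen by gene name and biotype. The members and the gene lists were chosen with earlier results of these data known, so that no list is independent evidence. Counts were filtered with filterByExpr, scaled by TMM and tested two-sided by the quasi-likelihood method of edgeR 4.0.16 in R 4.3.3, on genotype only, with Benjamini-Hochberg adjustment over 15816 genes. The common dispersion was 0.0445. CPM values use TMM-scaled totals. Log2 fold changes are TRPM2-KO against WT, and SE is the standard error. Percentages of the WT level were taken from the fitted log2 fold changes. Subclasses were also tested as summed counts. Named were called members with an absolute log2 fold change above 1, the tested member of highest mean FPKM in each subclass, and up to 3 genes of smallest p in each list. The other members were added after their values were seen, as were further list genes. Shared windows are stretches of 75 bases of GENCODE transcripts found in another gene on either strand.

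Alternatives were the size factors and the Wald test of DESeq2 1.42.0, upper quartile scaling, totals without mitochondrial genes, other filters, limma 3.58.1 (voom, and log2 FPKM with a pseudocount of 1 or 0.1), protein-coding genes only, each mouse left out and the replicate number as a block. Libraries of 1 genotype differed beyond sampling noise (chi-square per degree of freedom 14.7 to 40.8), so that no pair was treated as 1 library. The titles number the samples, and whether they share a litter or day is not stated. The fit was tested on simulated counts of 15816 genes in this comparison, where it recovered 75 of 100 genes changed 4-fold and 57 of 100 changed 2-fold, with 3 other genes called.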

Additional observations from a re-analysis of the deposited data

How the results depend on the processing

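Of 669 values of single members under the alternatives without the replicate block, 609 kept direction and side of the threshold, 39 lost the call, 9 gained one and 12 changed sign. Gsta2, Gsta3, Gstk1, Gstm1, Gstm7, Gstp1, Gstz1, Mgst3, Ugt1a2, Ugt2b38, Ugt3a1 and Ugt3a2 were called lower under all 16. With 1 mouse left out, 12 to 20 members were called lower, 7 to 10 GST, 1 to 2 MGST, 0 to 3 SULT genes and 6 to 12 subclass sums (10 with all mice), 0 to 1 member passed the study's threshold upwards, and 470 to 1240 genes were called lower and 160 to 819 higher. The cause of these changes was not tested, and each of these fits also had fewer mice. The UGT median was -1.58 to -0.96 and the SULT median -0.48 to -0.088 in these fits. Without a filter on low counts 1262 genes were called higher and the UGT median was -0.52. It was -1.54 with limma-voom and -0.73 with limma on log2(FPKM + 1), and both limma fits on log2 FPKM called 1 MGST gene. The SULT median was -0.51 at a mean CPM of at least 1 and -0.39 with limma-voom.

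Signs turned for members near 0. Ugt1a7c was at 0.04 without WT 1, 0.02 without TRPM2-KO 2 and 0.17 without TRPM2-KO 4, and its lowest value was -0.92, without TRPM2-KO 1. Ugt2b34 was at 0.0037 with upper quartile scaling and at 0.11, 0.03, 0.22 and 0.04 without WT 1, WT 2, TRPM2-KO 2 and TRPM2-KO 4. Sult2b1 was at 0.0048 (summed 0.0032) with upper quartile scaling and at 0.23 and 0.09 without TRPM2-KO 1 and 4, alone or summed, with a lowest value of -0.544 (summed -0.545) without TRPM2-KO 2, and Sult6b1 at -0.40 with limma-voom.

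Numbers 1 and 2 occur in both genotypes, but same-numbered mice did not deviate together (correlations of deviations over genes 0.06 and -0.01). Pairs with different numbers had correlations of -0.25 (WT 3 with TRPM2-KO 1) to 0.22 (WT 3 with TRPM2-KO 4). Whether mice shared a litter or day cannot be told from these values. In the fit with the replicate block, the genotype effect rested on the mice numbered 1 and 2 alone. The mouse of each genotype without a same-numbered partner was alone in its block and added nothing to that effect. The block fit thus compared fewer mice than the main fit, and its counts are not an alternative on all mice. With the replicate block, 661 genes were called lower and 341 higher, 14 members lower, of which 6 GST, 1 MGST and 1 SULT gene, and 6 subclass sums. In this fit 1 member passed the study's threshold upwards, the UGT median was -1.62, and Sult5a1 was at -0.040 and the Sult5a sum at -0.041.

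Mice per genotype limit the calls, and members under about 0.2 CPM are near 3 counts per library. The p-values of edgeR set the difference between genotypes against the spread between these mice, with information on that spread shared over all genes.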
